A study of Mus musculus with 9 samples.

Results

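The 10 circadian clock genes Arntl, Clock, Npas2, Per2, Per3, Cry1, Cry2, Dbp, Nr1d1 and Tef were followed through every library of an RNA-seq experiment on mouse eWAT, the epigonadal white fat depot that lies against the ovary and uterus. They were picked by symbol, and each of the 10 symbols matched 1 of the 53700 gene IDs of the count table, for instance ENSMUSG00000055116 for Arntl, ENSMUSG00000059824 for Dbp and ENSMUSG00000020889 for Nr1d1. The circadian clock is a feedback loop that runs in nearly every cell. ARNTL, also called BMAL1, pairs with CLOCK or NPAS2 and switches on the Per, Cry, Nr1d1, Dbp and Tef genes through E-boxes. PER and CRY proteins then return to the nucleus and block that pair, and NR1D1 represses Arntl through ROR response elements, so that Arntl and Npas2 transcripts peak when Nr1d1 and Dbp transcripts are low. In mouse fat and liver this places the Arntl peak around the end of the night and the Nr1d1 and Dbp peaks in the afternoon.

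The libraries came from 9 female NSG mice, a strain without functional T, B and natural killer cells, labelled wild type and collected at week 12. Of these, 3 were untreated (mice 4, 7 and 10), 3 had received 10 tail vein injections of extracellular vesicles (EVs) from MDA-MB-231 cells over 5 weeks (mice 36, 37 and 41), and 3 carried orthotopic MDA-MB-231 tumours (mice 17, 21 and 22). MDA-MB-231 cells are an established human line from a triple-negative breast tumour. Per the study's methods, the animals lived under a light and dark cycle and were killed late in the light phase. They were housed singly in the tumour experiments and grouped otherwise. The housing of the untreated mice is not given, so housing cannot be told apart from the tumour or from EV injection. No label gives the hour of collection of a mouse.

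Libraries held 20097628 to 26149263 counts. Levels are CPM, counts scaled to a common library total, with TMM factors applied, and a gene was called at an edgeR Benjamini-Hochberg adjusted p under 0.05 over the 17876 genes kept by the filter, which all 10 members passed. The fat pads differed in makeup across the groups. The 7 adipocyte markers summed to 24933 to 40983 CPM in untreated 4, EV 37 and the 3 tumour-bearing libraries, and to 1670 to 6054 CPM in the other 4. The 8 ovary markers summed to 9215, 4714 and 7334 CPM in untreated 10, EV 36 and EV 41, against 24.6 to 71.6 CPM elsewhere, where the granulosa cell factor Foxl2 was at 0 counts in untreated 7 and EV 37. Smooth muscle markers reached 15401 CPM in untreated 7, and 740.2 to 3302 CPM in the other 8, and the 9 skeletal muscle markers were at 2670 to 7113 CPM with a tumour against 9.90 to 393 CPM without one. The 6 oviduct and uterus epithelium markers summed to 1963 CPM in untreated 7, nearly all of it from the keratins Krt8 and Krt18 with Ovgp1, Foxj1 and Pax8 at 0.277 CPM or less, to 231 to 293 CPM in the 3 ovary libraries and to 9.52 to 25.6 CPM in the other 5. The 5 macrophage markers summed to 428, 926 and 626 CPM in tumour bearing 17, 21 and 22. They summed to 119 to 294 CPM in untreated and 155 to 483 CPM in EV mice. Each of the 5 was higher without overlap in tumour-bearing than in untreated mice, where 11.8% of all genes tested did not overlap in either direction. In such tissue, fewer cells of a type and less RNA per cell cannot be told apart. Each library is 1 mouse, and p-values measure the spread between these mice.

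The promoters of the genes on which the clock readings below rest are shown first, with elements of the loop marked where they were found. RefSeq gave 13 windows for 9 of the 10 members (build GRCm38.p6), each reaching from 250 bases before to 50 bases after a start site. Per2 had no entry. Both strands were searched for the E-box CACGTG, the 2 D-box forms TTATGTAA and TTACGTAA bound by DBP and TEF, and the RORE consensus read by NR1D1 and the ROR receptors. None of the matches overlapped another. Capitals mark the matches, and positions count from the start site. Arntl is the target of the repressor arm (chr7:113207261-113207560, plus strand), and Dbp (chr7:45704997-45705296, plus strand) and Nr1d1 (chr11:98775328-98775627, minus strand) are its opposing genes. Per3 (chr4:151044616-151044915, minus strand) and Tef (chr15:81811164-81811463, plus strand) were the members that tracked Dbp most closely.
Arntl: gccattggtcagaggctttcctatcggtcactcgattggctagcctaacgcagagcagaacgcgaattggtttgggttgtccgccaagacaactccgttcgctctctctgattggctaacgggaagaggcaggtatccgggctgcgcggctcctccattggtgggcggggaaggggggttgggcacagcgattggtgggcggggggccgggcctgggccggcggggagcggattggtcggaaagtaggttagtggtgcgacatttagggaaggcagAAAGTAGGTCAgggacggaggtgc
Dbp: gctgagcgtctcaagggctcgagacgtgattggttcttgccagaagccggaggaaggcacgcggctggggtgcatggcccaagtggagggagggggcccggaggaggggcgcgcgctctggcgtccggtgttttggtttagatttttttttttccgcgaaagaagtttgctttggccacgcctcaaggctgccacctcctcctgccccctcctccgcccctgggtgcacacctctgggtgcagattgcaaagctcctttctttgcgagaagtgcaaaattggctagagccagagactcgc
Nr1d1: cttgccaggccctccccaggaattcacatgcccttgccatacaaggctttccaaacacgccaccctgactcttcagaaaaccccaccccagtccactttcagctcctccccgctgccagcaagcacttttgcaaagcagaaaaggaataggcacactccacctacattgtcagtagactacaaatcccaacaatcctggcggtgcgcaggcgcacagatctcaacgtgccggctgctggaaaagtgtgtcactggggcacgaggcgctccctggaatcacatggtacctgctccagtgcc
Per3: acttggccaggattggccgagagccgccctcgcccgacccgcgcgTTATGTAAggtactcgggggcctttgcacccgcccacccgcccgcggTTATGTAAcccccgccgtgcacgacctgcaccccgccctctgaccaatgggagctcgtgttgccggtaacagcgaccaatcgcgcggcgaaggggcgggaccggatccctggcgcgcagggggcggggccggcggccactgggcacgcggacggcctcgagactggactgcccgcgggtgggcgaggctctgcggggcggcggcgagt
Tef: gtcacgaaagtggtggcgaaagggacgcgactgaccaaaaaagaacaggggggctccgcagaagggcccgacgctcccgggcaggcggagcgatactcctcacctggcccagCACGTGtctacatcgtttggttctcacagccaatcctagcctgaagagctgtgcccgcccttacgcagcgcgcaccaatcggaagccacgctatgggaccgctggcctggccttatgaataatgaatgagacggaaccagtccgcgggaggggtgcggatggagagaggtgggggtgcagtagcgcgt
The Arntl window held a RORE consensus at 27, AAAGTAGGTCA, which 0.3835% of all 32851 promoter windows hold. Per3 had TTATGTAA at -205 and at -158, a form present in 0.9376% of windows, whereas TTACGTAA, in 0.1187%, was in no member. The E-box stood at -138 in the Tef window shown, at -127 in the other Tef window and at -60 in the Cry1 window, against 7.15% of all windows. No searched element lay in the windows of Dbp, Nr1d1, Npas2, Clock or Cry2, which says only that these letters are not within these 300 bases.

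Arntl and Npas2 varied most of all members. Arntl, the core activator, was at 0.561, 5.01 and 10.5 CPM in untreated 4, 7 and 10, at 15.5, 3.32 and 6.58 CPM in EV 36, 37 and 41, and at 4.20, 2.84 and 3.66 CPM in tumour bearing 17, 21 and 22. Untreated 4 stood far below all others with 10 counts, EV 36 was highest with 433 counts, and the 3 groups overlapped. Group means were 5.37 ± 4.99 CPM in untreated, 8.47 ± 6.31 CPM in EV and 3.57 ± 0.686 CPM in tumour-bearing mice (SD, n = 3 each). Npas2, the partner that replaces CLOCK in some tissues, was at 0.168, 8.57 and 3.96 CPM in untreated mice, 4.33, 0.388 and 3.25 CPM in EV mice and 0.448, 0.521 and 3.42 CPM in tumour-bearing mice. Its libraries fell on either side of a wide gap: 4 of them, with 3 to 9 counts, lay at 0.521 CPM or less and the other 5, with 70 counts or more, at 3.25 CPM or more, and each group held both kinds. Clock, the partner that cycles little in most tissues, was at 23.4, 66.6 and 35.0 CPM in untreated, 39.7, 35.1 and 32.4 CPM in EV and 52.3, 33.2 and 46.9 CPM in tumour-bearing mice. Its lowest library was again untreated 4 and its highest untreated 7, the library richest in smooth muscle and in keratin transcripts. The part of that makeup in its level was not tested.

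**Figure D1:**
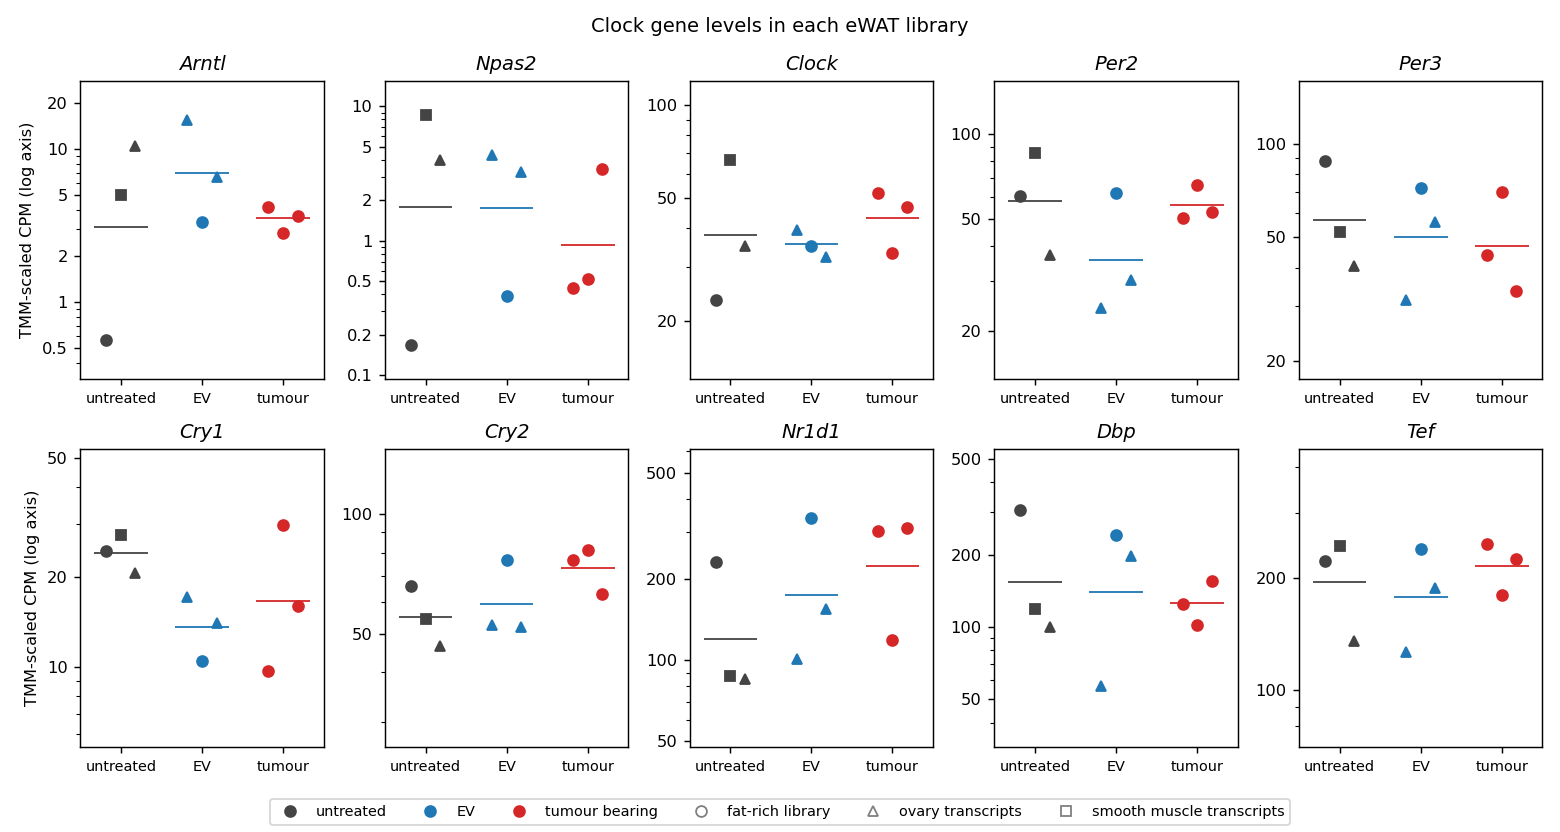
TMM-scaled CPM (log axis) of the 10 clock genes in the 9 eWAT libraries, 1 point per mouse, with a line at the geometric mean of each group of 3. Circles are the 5 libraries rich in adipocyte transcripts, triangles the 3 with ovary transcripts and the square untreated 7 with smooth muscle transcripts, and Arntl and Npas2 spread far more within groups than Tef or Cry2 do.

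The repressors of the PER and CRY family spread less. Per2, which carries CRY into the repressor complex, was at 60.2, 85.9 and 37.05 CPM in untreated 4, 7 and 10, 24.1, 61.5 and 30.2 CPM in EV 36, 37 and 41, and 50.3, 65.9 and 52.8 CPM in tumour bearing 17, 21 and 22. EV 36 and EV 41 held the lowest levels, and EV 37 lay among the libraries of the other groups. Per3, a paralog with a weaker part in the loop, was at 88.2, 51.9 and 40.5 CPM in untreated, 31.5, 71.8 and 56.1 CPM in EV and 43.9, 69.8 and 33.6 CPM in tumour-bearing mice, again with the groups interleaved. Cry1, the stronger repressor of the CRY pair, was at 24.4, 27.7 and 20.7 CPM in untreated and at 17.2, 10.5 and 14.0 CPM in EV mice, so every EV library lay below every untreated one. With a tumour Cry1 was at 9.74, 29.7 and 16.0 CPM, a range that took in both other groups. Cry2, the other cryptochrome, was the steadiest member, at 65.9, 54.6 and 46.6 CPM in untreated, 52.7, 76.9 and 52.0 CPM in EV and 76.6, 81.2 and 63.0 CPM in tumour-bearing mice. Its highest library exceeded its lowest 1.74-fold.

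Nr1d1, which encodes the heme-binding repressor REV-ERB alpha, was at 232, 87.2 and 85.5 CPM in untreated 4, 7 and 10, 101, 340.3 and 155 CPM in EV 36, 37 and 41, and 303, 119.5 and 310.0 CPM in tumour bearing 17, 21 and 22. The 4 highest libraries, EV 37, tumour bearing 22 and 17 and untreated 4, came from all 3 groups. Exons of Nr1d1 and of Thra, a thyroid hormone receptor gene, share 263 bases on opposite strands, and the counting is not stated to use strand. Thra was at 88.8 to 147 CPM in all 9 libraries, a narrower range than that of Nr1d1. Its levels in EV mice, 136 to 147 CPM, lay above those in untreated mice, 88.8 to 126 CPM. Groups did not overlap for 2.88% of all genes tested in that comparison. The part of shared bases in the Nr1d1 level was not tested.

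The output genes Dbp and Tef encode PAR bZIP transcription factors that pass the rhythm on through D-boxes. Dbp was at 306, 119 and 100.5 CPM in untreated 4, 7 and 10, 56.9, 241 and 198 CPM in EV 36, 37 and 41, and 125, 102 and 156 CPM in tumour bearing 17, 21 and 22. Untreated 4, lowest in Arntl, was highest in Dbp, and EV 36, highest in Arntl, was lowest in Dbp, a 5.38-fold span. Its group means were 175 ± 114, 165 ± 96.4 and 128 ± 27.0 CPM in untreated, EV and tumour-bearing mice (SD, n = 3 each). Tef was at 222, 245 and 136 CPM in untreated, 126, 239 and 188 CPM in EV and 248, 180.1 and 226 CPM in tumour-bearing mice, with its lowest values in EV 36 and untreated 10. Dbp shares 539 exon bases with Sphk2 on the opposite strand, which had a mean of 769 counts. The other antisense neighbours, of Tef, Cry2 and Arntl, had means of 5.33 counts or fewer.

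Over the 9 libraries the SD of log2 CPM was 1.96 for Npas2, 1.34 for Arntl, 0.82 for Nr1d1 and 0.74 for Dbp, and ran from 0.29 for Cry2 to 0.58 for Per2 among the other 6. The median over the 12421 genes with a mean of at least 5 CPM was 0.474, and Arntl lay at percentile 89.7, Nr1d1 at 75.1, Dbp at 71.1 and Cry2 at 23.1 of them. The spread was at least as wide inside the groups for all members but Per2, Cry1 and Cry2. The pooled SD of log2 CPM within groups was 1.42 for Arntl and 0.84 for Dbp. For Per2, Cry1 and Cry2 it was 0.55, 0.52 and 0.26, against 0.58, 0.58 and 0.29 over the 9 libraries. Arntl, Npas2 and Clock averaged 2.19 below their own 9-library means in untreated 4 on the log2 scale (mean deviation -2.19), where Dbp, Tef, Per3 and Nr1d1 averaged 0.64 above theirs. EV 37 had the same pattern at -0.78 and 0.65, and EV 36 the opposite one at 1.15 and -0.84. The averages of the activator arm and of these 4 opposing genes had opposite signs in 6 of the 9 libraries and the same sign in EV 41, tumour bearing 21 and tumour bearing 22. How often unrelated sets of genes differ in sign was not counted, so this number is not read as a result about the clock.

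**Figure D2:**
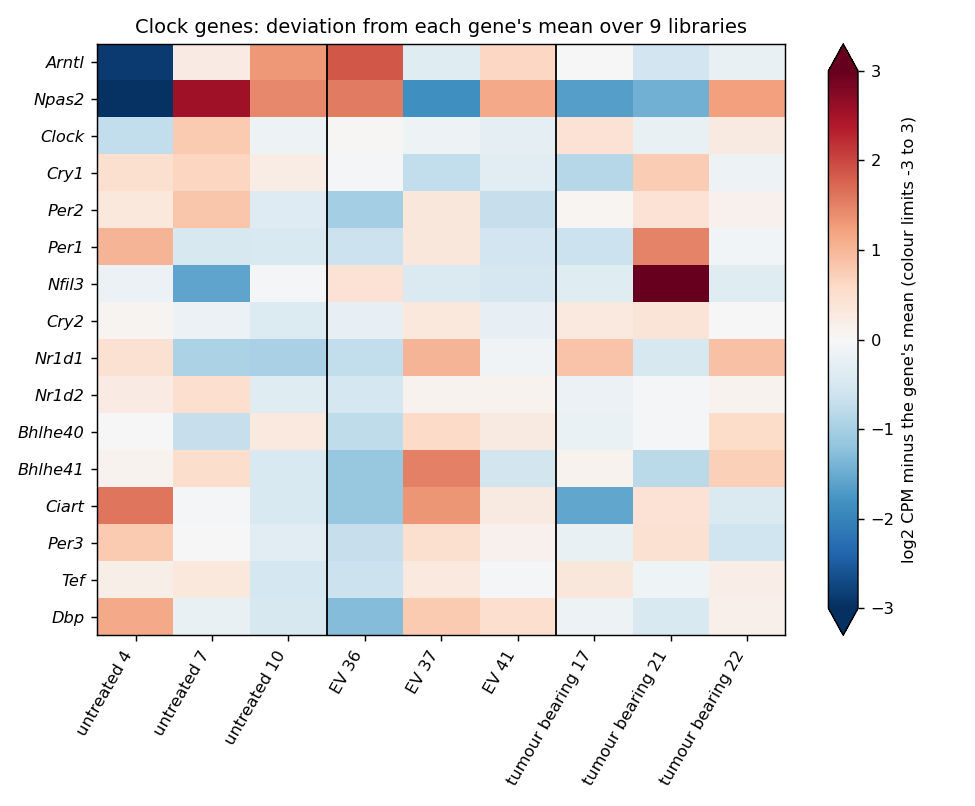
Deviation of log2 CPM from the gene's own mean over the 9 libraries, for the 10 members and 6 further clock genes (rows) in each library (columns, with lines between the groups), in red above and blue below that mean. Arntl and Npas2 are darkest blue in untreated 4, where Dbp is red, and red in EV 36, where Dbp is blue, while Nfil3 and Per1 stand out in tumour bearing 21.

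Because Arntl and its opposing genes peak at nearly opposite times of day, their ratio within a library was used to ask whether libraries differed in clock phase or time of collection. This ratio does not depend on how a library is scaled. Untreated 4 held 546 Dbp counts for each Arntl count, and EV 36 held 3.67. The log2 ratio of Arntl to Dbp counts was -9.02, -4.56 and -3.25 in untreated 4, 7 and 10, -1.87, -6.18 and -4.90 in EV 36, 37 and 41, and -4.89, -5.15 and -5.40 in tumour bearing 17, 21 and 22. Tumour-bearing libraries stayed within a narrow band inside the range of each other group. With Nr1d1 in place of Dbp the log2 ratio was -8.62, -4.12 and -3.02 in untreated, -2.70, -6.67 and -4.56 in EV and -6.17, -5.38 and -6.39 in tumour-bearing mice, which gave the same highest library, EV 36, and the same lowest, untreated 4. The Nr1d1 to Dbp log2 ratio, between genes of neighbouring peak times, ran only from -0.45 in untreated 7 to 1.28 in tumour bearing 17.

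Group means of the log2 Arntl to Dbp ratio were -5.61 ± 3.02 in untreated, -4.32 ± 2.21 in EV and -5.15 ± 0.26 in tumour-bearing mice (SD, n = 3 each). EV minus untreated was 1.29, tumour bearing minus untreated 0.47 and tumour bearing minus EV -0.83, with exact 2-sided permutation p of 0.7, 1 and 0.8. For Arntl to Nr1d1 the same differences were 0.61, -0.73 and -1.34, with exact permutation p of 0.8, 0.8 and 0.4. Adjusted over these 6 tests all p lay between 0.96 and 1, where 3 mice against 3 cannot give a p below 0.1. The sign of the EV difference rested on untreated 4: without it the Arntl to Dbp difference was -0.41 and the Arntl to Nr1d1 difference -1.07. For Arntl to Nr1d1 the difference also turned negative without EV 36. Without untreated 4 the tumour difference from untreated in the Arntl to Dbp ratio was likewise -1.24, and without EV 36 the tumour difference from EV was 0.39.

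**Figure D3:**
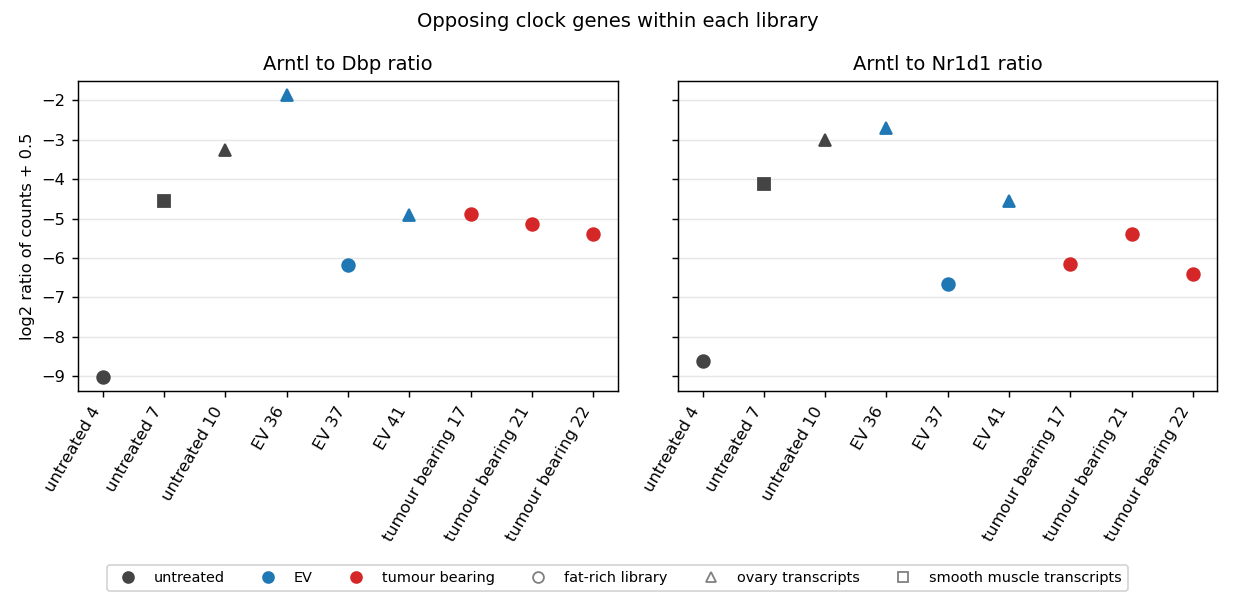
Log2 ratio of Arntl counts to Dbp counts (left) and to Nr1d1 counts (right), each count raised by 0.5, in the 9 libraries, 1 point per mouse with colours for groups and symbols for tissue makeup. Untreated 4 is lowest and EV 36 highest in both panels, and the 3 tumour-bearing libraries lie between -4.89 and -5.40 on the left.

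Arntl was lower in the libraries rich in adipocyte transcripts. Ordered by Adipoq, the adiponectin gene of fat cells, the top 5 libraries (EV 37, untreated 4 and tumour bearing 17, 22 and 21, at 2969 to 4422 CPM) held the 5 lowest Arntl levels, 0.561 to 4.20 CPM, against 5.01 to 15.5 CPM in the 4 libraries with 131 to 727 CPM of Adipoq. They also held the 5 lowest log2 Arntl to Nr1d1 ratios, -8.62 to -5.38, against -4.56 to -2.70. The log2 Arntl to Dbp ratio did not separate in this way, since EV 41, poor in Adipoq, was at -4.90 and tumour bearing 17, rich in it, at -4.89. Npas2 was at 0.168 to 0.521 CPM in 4 of those 5 and at 3.42 CPM in tumour bearing 22. Dbp did not follow the same order: the adipocyte-rich libraries had 102 to 306 CPM and the others 56.9 to 198 CPM. Cry2 separated in the other direction, at 63.0 to 81.2 CPM in the adipocyte-rich libraries against 46.6 to 54.6 CPM in the others. The share of all genes that separate these libraries was not counted, so the split is not read as particular to Arntl or Cry2. The adipocyte-rich libraries share their makeup as well as their Arntl level. The part of the makeup in the clock ratios and in Cry2 was not tested. Within the adipocyte-rich libraries the log2 Arntl to Dbp ratio ran from -9.02 in untreated 4, with 10 Arntl counts, to -4.89 in tumour bearing 17. The next lowest was -6.18 in EV 37. These libraries also differed in makeup, with skeletal muscle markers at 10.4 CPM in untreated 4 and 2670 CPM in tumour bearing 17.

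**Figure D4:**
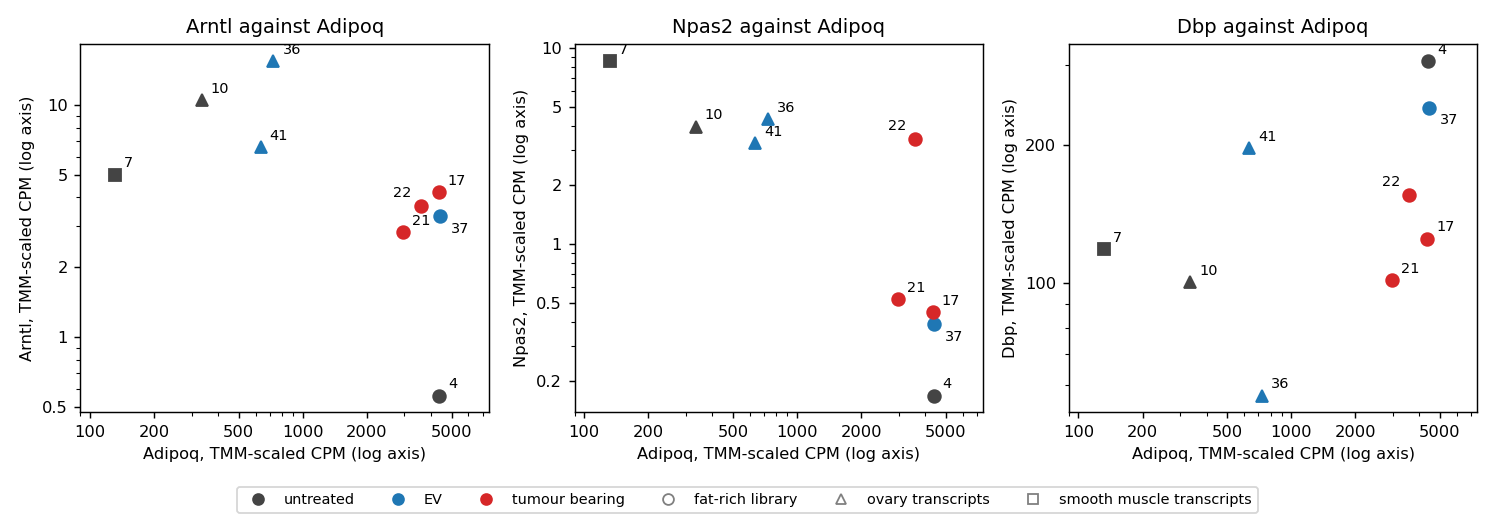
Arntl, Npas2 and Dbp against Adipoq, all as TMM-scaled CPM on log axes, with 1 point per library labelled by mouse number, colours for groups and symbols for tissue makeup. The 5 libraries with 2969 CPM or more of Adipoq have the 5 lowest Arntl levels, whereas Dbp overlaps between them and the others.

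The first comparison asked whether the clock genes of eWAT differed after repeated EV injection. The labels give no injections for untreated mice, so the EVs and the injections that carried them cannot be told apart. Cry1 averaged 13.9 ± 3.36 CPM after EV injection against 24.3 ± 3.47 CPM in the untreated group (SD, n = 3 each), a log2 fold change of -0.80 ± 0.40 (SE, edgeR adjusted p = 1). It was 1 of 10 members whose groups did not overlap, against 2.88% of all genes tested. Per2 had a log2 fold change of -0.66 ± 0.41, Arntl 0.66 ± 0.91 and Nr1d1 0.56 ± 0.61, while Dbp, Tef and Cry2 were at -0.08, -0.12 and 0.12. By edgeR 0 of 10 members were called, where 0.00559% of all genes were, and 0 had an unadjusted p under 0.05, where 1.19% did. DESeq2 called 0 of 10 as well, against 0.0895% of all genes. The median log2 fold change of the 10 was -0.15, with 3 positive, beside -0.0015 for all genes. The sign for Arntl rested on EV 36, without which it was -0.12, and that for Nr1d1 on EV 37, without which it was -0.08. Per2 was at -0.33 without untreated 7, at -0.41 without EV 36 and at -1.17 without EV 37.

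The second comparison set tumour-bearing against untreated mice. Nr1d1 was 244 ± 108 CPM with a tumour and 135 ± 83.9 CPM without (SD, n = 3 each), a log2 fold change of 0.86 ± 0.61 (SE), which was 1.505 without untreated 4 (edgeR adjusted p = 0.158). Cry2 was at 73.6 ± 9.42 against 55.7 ± 9.70 CPM, a log2 fold change of 0.40 ± 0.23 and the lowest adjusted p among the members by edgeR, 0.465. Npas2, Arntl and Dbp were at -1.53 ± 1.36, -0.59 ± 0.91 and -0.46 ± 0.59, with groups that overlapped, and Per2, Clock and Tef at -0.11, 0.08 and 0.12. By edgeR 0 of 10 members were called against 0.218% of all genes, and 0 had an unadjusted p under 0.05 against 11.9%. DESeq2 called 0 of 10 against 4.2%, and 0 of 10 had groups without overlap, against 11.8%. The median of the 10 was -0.20, with 4 positive, beside -0.12 for all genes. Without the 3 ovary libraries and untreated 7 only untreated 4 was left as control. Arntl then turned to 2.65 ± 0.63 and Npas2 to 3.08 ± 1.83, with the spread taken from the tumour-bearing libraries. Cry2, which was higher in all adipocyte-rich libraries, was at 0.16 in that fit.

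The third comparison was between tumour-bearing and EV mice. The log2 fold change of Arntl was -1.25 ± 0.92 (SE, edgeR adjusted p = 0.493, the lowest among the members), from 3.57 ± 0.686 against 8.47 ± 6.31 CPM (SD, n = 3 each). Per2 was at 0.55 ± 0.41, Cry1 at 0.41 ± 0.40, Nr1d1 at 0.30 ± 0.60, Clock at 0.30 ± 0.37 and Cry2 at 0.28 ± 0.23, with Dbp at -0.37 ± 0.59 and Npas2 at -0.86 ± 1.34. By edgeR 0 of 10 members were called against 0.257% of all genes, and 0 had an unadjusted p under 0.05 against 14.1%. DESeq2 called 0 of 10 against 5.03%, and 0 of 10 had groups without overlap against 25.2%. The median of the 10 was 0.26, with 6 positive, beside -0.06 for all genes. Arntl was at 0.09 without the 3 libraries with ovary transcripts, which leaves EV 37 as the only EV library. The EV and tumour comparisons with untreated mice share their controls. The 3 batches inferred from the deposited table were untreated 7, tumour bearing 17 with 22, and the other 6 libraries. With these batches as a term, 0 of 10 members were called in EV against untreated mice. The batches of untreated 7 and of tumour bearing 17 with 22 hold no other group, so these libraries then add nothing to the group differences. Both tumour comparisons rest on the only tumour-bearing library among the other 6. From that library alone, Nr1d1 was at -0.41 in tumour against untreated and at -0.73 in tumour against EV mice. These values cannot tell a batch effect from the level of that mouse.

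**Figure D5:**
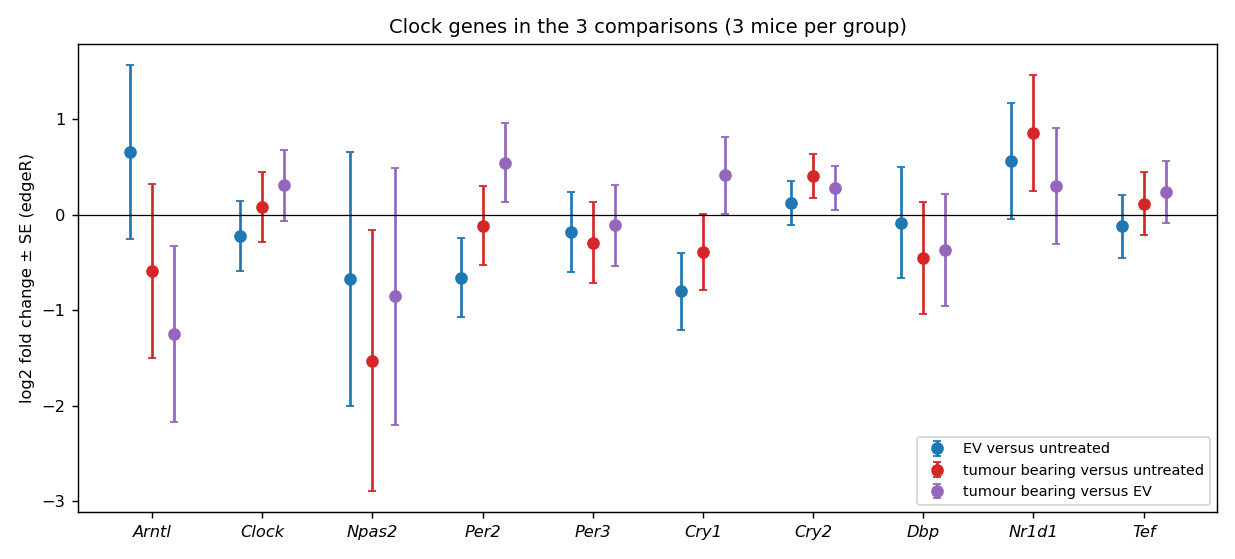
Log2 fold change ± SE of the 10 clock genes by edgeR in the 3 comparisons, 3 mice per group. The widest error bars are those of Npas2 and Arntl, and none of the 30 values passed the test.

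Of 25 further genes of the clock and its regulators, 24 passed the filter, Rorb being the exception at 0.604 CPM or less in every library. By edgeR 0 of 24 were called in each comparison, and 0, 2 and 3 had an unadjusted p under 0.05 for EV against untreated, tumour against untreated and tumour against EV, where 1.19%, 11.9% and 14.1% of all genes did. The median log2 fold changes of the list were -0.24, -0.03 and 0.07. By DESeq2 1 of 24 was called, Arntl2, the paralog of Arntl, in tumour-bearing against untreated mice (adjusted p = 0.0281, and 0.321 by edgeR). DESeq2 called 4.2% of all genes there, and 1 of 24 lies near that share. For Nfil3 DESeq2 gave no p-value in any comparison. Arntl2 was at 0.841, 0.691 and 0.754 CPM in untreated 4, 7 and 10, 0.501, 0.302 and 0.491 CPM in EV 36, 37 and 41 and 0.112, 0.116 and 0.146 CPM in tumour bearing 17, 21 and 22, so the groups did not overlap in any comparison. The tumour values rest on 2, 2 and 3 counts. Arntl2 passed the filter with all 9 libraries but failed it when only tumour-bearing and EV libraries were fitted. That fit lacks the untreated group, where Arntl2 was highest.

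Groups without overlap were seen for 1 of these 24 genes in EV against untreated, 2 in tumour against untreated and 6 in tumour against EV mice, beside 2.88%, 11.8% and 25.2% of all genes, so that the counts lay near the background. In the third comparison these were Rora, an activator of Arntl, the kinase Gsk3b and the AMP kinase subunit Prkaa2 on the higher side, and Arntl2, the kinase Csnk1e and Sfpq, an RNA-binding partner of PER proteins, on the lower side. Rora was at 50.5, 71.5 and 56.9 CPM with a tumour and at 21.7, 39.4 and 25.5 CPM in EV mice, a log2 fold change of 1.05 ± 0.42 (SE, edgeR adjusted p = 0.351). In untreated 4, 7 and 10 Rora was at 61.8, 60.3 and 20.8 CPM, so that all 3 libraries with ovary transcripts, untreated 10 among them, lay at 25.5 CPM or less. Sfpq went the other way, at 289 to 336 CPM in those 3 libraries and 119 to 226 CPM in the other 6. The part of the ovary transcripts in both was not tested. Without these 3 libraries the log2 fold changes in tumour against EV mice were 0.59 ± 0.34 for Rora and -0.24 ± 0.42 for Sfpq.

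Tumour bearing 21 stood apart in some of these genes. It also had the highest sum of macrophage markers, 926 CPM against 119 to 626 CPM in the other 8 libraries. Adgre1 and Itgam, at 356 and 180 CPM, were highest there. Cd68, Mpeg1 and Csf1r were higher in tumour bearing 22, at 91.2, 121 and 238 CPM against 62.7, 90.6 and 236 CPM. Tumour bearing 21 had the highest sum of skeletal muscle markers as well, 7113 CPM against 2670 and 3169 CPM in tumour bearing 17 and 22. It lay outside the inferred batch of 17 and 22. The part of each of these in the levels of tumour bearing 21 was not tested. Nfil3, a repressor that competes with DBP and TEF for D-boxes, was at 107 CPM there, against 4.25 to 17.2 CPM in the other 8 libraries. Per1, the PER gene that also answers to stress hormones, was at 355 CPM there and at 255 CPM in untreated 4, against 81.4 to 161 CPM elsewhere. EV 37 stood out in others. Ciart, a repressor of the activator pair, was at 29.1 CPM in untreated 4 and 24.0 CPM in EV 37 and at 3.25 to 13.0 CPM elsewhere, and Bhlhe41, another such repressor, reached 51.6 CPM in EV 37 against 8.17 to 29.6 CPM. Nr1d2, the paralog of Nr1d1, stayed between 74.0 and 151 CPM.

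The genes whose level tracked Dbp most closely were sought among 11808 genes with a mean of at least 5 CPM, by the SD over the 9 libraries of the log2 ratio to Dbp. The closest were Olfm1, Pqlc3, Plau, Pigw and Stk40, with SDs of 0.43 to 0.47. Among clock genes Per3 ranked 18 (SD 0.52), Tef 76 (SD 0.57), Nr1d2 133 (SD 0.58), Bhlhe40 173 (SD 0.59) and Nr1d1 953 (SD 0.66), while Arntl ranked 11090 (SD 1.97). Olfm1, a secreted glycoprotein gene, was at 65.9, 25.9 and 17.8 CPM in untreated, 19.7, 48.7 and 26.3 CPM in EV and 31.3, 34.3 and 34.5 CPM in tumour-bearing mice, with its highest values, like Dbp, in untreated 4 and EV 37. Closest to Arntl were Stbd1, Cand2, Gemin4, Smim3 and Aff3, with SDs of 0.57 to 0.65. Cand2, which regulates cullin ubiquitin ligases, was at 2.02, 15.0 and 16.3 CPM in untreated, 15.7, 4.70 and 16.0 CPM in EV and 9.91, 7.07 and 9.67 CPM in tumour-bearing mice. All 9 libraries share the same differences in makeup across genes, so these likenesses are descriptions over 9 points.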

How the data were processed

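eWAT RNA from 9 female mice was sequenced, 1 library a mouse. The authors deposited estimated counts per gene, 1 column a mouse, which their methods describe as RSEM output after SeqPrep and Sickle trimming and HISAT2 alignment. Bowtie 0.12.2, mm9 and mm8 stand in the submitters' processing notes, and no source used here gives the annotation. The deposited columns named TPM are treated as a score, because their totals were 0.697 to 1.28 times that of true TPM. They served only to infer batches: 99.9% of 14954 genes met the relations of 3 batches within a relative tolerance of 0.0001. The authors' further adjustment of them is not stated.

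Expected counts were rounded and fitted in edgeR 4.0.16 (R 4.3.3; filterByExpr, TMM, quasi-likelihood test, group as the only term, all 9 libraries in 1 fit), with Benjamini-Hochberg adjustment over 17876 genes at 0.05. The biological coefficient of variation was 62.8%. Levels are TMM-scaled CPM, with factors of 0.756 to 1.32. With library totals the median log2 fold change of all genes was 0.12, -0.45 and -0.48 for EV against untreated, tumour bearing against untreated and tumour bearing against EV, in place of -0.0015, -0.12 and -0.06, so values are relative to TMM. Ratios used counts plus 0.5 and exact 2-sided permutation tests (scipy 1.17.1). No pair of replicates was a duplicate (chi-square over its degrees of freedom 29.7 to 849). Log2 fold changes of genes with few counts depend on the prior count. Promoter windows and motifs came from RefSeq tables of build GRCm38.p6, matched by symbol. The fitting code was tested on simulated data.

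All 10 members are given in every library. Genes of a further list of 25 may be named with their values, of which 1 is counted but not reported here, and the 5 genes nearest to Dbp and to Arntl by the SD of the log2 ratio, leaving out predicted genes. The members and lists were chosen with earlier results of these data known. Alternatives were DESeq2 1.42.0, no filter, library totals, the 2 compared groups alone, each library left out, the libraries with ovary or smooth muscle transcripts left out, the inferred batches as a term, a pseudocount of 5 and a rank correlation for likeness.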

Additional observations from a re-analysis of the deposited data

How the results depend on the processing

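Over 480 member fold changes under alternatives, 0 passed the test, 412 kept their direction and 68 reversed. Of 30 member results, 2 kept their direction under every alternative, Cry1 in EV against untreated and Cry2 in tumour bearing against untreated. No paired analysis was possible because the groups share no mouse numbers. Causes were not tested.

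The main counts of genes called were 1, 39 and 46 for EV against untreated, tumour bearing against untreated and tumour bearing against EV. DESeq2 called 16, 750 and 900. No filter gave 4 for EV against untreated, and fits of the 2 compared groups alone gave 0 for EV against untreated and 111 for tumour bearing against EV. Without the ovary libraries the counts were 0, 0 and 0, as they were without these and untreated 7, where 1 untreated and 1 EV library are assumed to vary like the tumour-bearing ones. Inferred batches as a term gave 0, 4 and 27. Leaving out 1 library gave 0 to 2, 8 to 38 and 0 to 70 genes, with 8 without tumour bearing 22, 0 for tumour bearing against EV without EV 36, and 2 without EV 41.

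Log2 fold changes that reversed with library totals were Dbp 0.13 in EV against untreated, Clock -0.28 and Tef -0.15 in tumour bearing against untreated, and Clock -0.11, Cry1 -0.076, Cry2 -0.12, Nr1d1 -0.0099 and Tef -0.14 in tumour bearing against EV. Without the ovary libraries they were Per3 0.052, Dbp 0.20 and Tef 0.052, then Arntl 0.37, Clock -0.014 and Tef -0.092, then Arntl 0.095, Npas2 1.90, Per2 -0.14, Cry2 -0.073, Nr1d1 -0.49 and Tef -0.14, in the same order of comparisons. Without untreated 7 as well they were Clock 0.59, Npas2 1.18, Per2 0.038 and Tef 0.11, then Arntl 2.65, Npas2 3.08 and Tef -0.033, then Arntl 0.097, Npas2 1.90, Per2 -0.13, Cry2 -0.071, Nr1d1 -0.49 and Tef -0.14. With inferred batches they were Clock 0.29, Npas2 0.36 and Tef 0.043, then Per2 0.44, Per3 0.12, Cry1 0.40 and Nr1d1 -0.41, then Clock -0.11, Per3 0.39, Nr1d1 -0.73 and Tef -0.035. In that fit the values for tumour-bearing mice rest on the only tumour-bearing library in a batch with other groups.

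Leaving out 1 library in turn, the log2 fold changes that reversed in EV against untreated ranged from -0.12 to 1.59 for Arntl, -0.51 to 0.29 for Clock, -1.23 to 0.36 for Npas2, -0.46 to 0.20 for Per3, -0.092 to 0.26 for Cry2, -0.46 to 0.59 for Dbp, -0.077 to 1.20 for Nr1d1 and -0.36 to 0.088 for Tef. In tumour bearing against untreated they ranged from -1.12 to 0.35 for Arntl, -0.20 to 0.60 for Clock, -0.37 to 0.22 for Per2, -0.63 to 0.092 for Per3, -0.73 to 0.22 for Dbp and -0.10 to 0.28 for Tef. In tumour bearing against EV they ranged from -0.45 to 0.17 for Per3, -0.11 to 0.72 for Cry1, -0.78 to 0.0087 for Dbp and -0.018 to 0.94 for Nr1d1. The others kept their sign when 1 library was left out. They ranged from -1.17 to -0.33 for Per2 and -0.99 to -0.64 for Cry1 in EV against untreated. In tumour bearing against untreated they ranged from -3.13 to -0.50 for Npas2, -0.91 to -0.084 for Cry1, 0.29 to 0.54 for Cry2 and 0.62 to 1.505 for Nr1d1. In tumour bearing against EV they ranged from -1.62 to -0.47 for Arntl, 0.17 to 0.48 for Clock, -2.40 to -0.31 for Npas2, 0.30 to 1.06 for Per2, 0.19 to 0.50 for Cry2 and 0.029 to 0.48 for Tef.

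Without the ovary libraries the Arntl to Nr1d1 difference was -0.30 in EV against untreated and 0.39 in tumour bearing against untreated, and in tumour bearing against EV, with 1 EV library left, the Arntl to Dbp difference was 1.03 and the Arntl to Nr1d1 difference 0.69. Leaving out 1 library gave Arntl to Dbp differences of -0.41 to 2.47, -1.24 to 1.65 and -1.76 to 0.39 for the 3 comparisons, and Arntl to Nr1d1 differences of -1.07 to 1.73 and -2.41 to 0.39 for those against untreated mice and -2.35 to -0.37 for tumour bearing against EV. With a rank correlation the 5 genes nearest to Dbp, and those nearest to Arntl, shared 0 with the lists given. Counts of 2 to 10 limit Arntl2 in tumour-bearing mice and Arntl and Npas2 in untreated 4.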
